A study of Mus musculus with 2 samples.

Results

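The peaks described here are the sites of PAX7-YFP recovery in mouse muscle stem cells that lie where the ends of neighbouring genes come close together. A peak was counted when its summit was within 1000 bp of an end of a protein-coding gene on chromosomes 1 to 19 and when at least 2 different protein-coding genes had an end within 5000 bp of that summit. This held for 281 of the 863 peaks at gene ends (32.6%, Wilson 95% interval 29.5 to 35.8%), out of 2977 peaks in the whole list, of which 2958 lay on these chromosomes. The other 582 gene-end peaks had a single gene within 5000 bp, and 2095 peaks lay farther than 1000 bp from any gene end. They come from chromatin immunoprecipitation with sequencing (ChIP-seq), in which protein-DNA complexes are recovered with an antibody and their DNA is counted. The ChIP library was made with the antibody A-11122 of Thermo Fisher, raised to green fluorescent protein (GFP), which also recognises yellow fluorescent protein (YFP), and the input library was DNA of the same kind of cells taken without an antibody. Both were made from untreated muscle stem cells sorted from C57BL/6 mice of the genotype Pax7-YFP KI, so the knock-in allele was carried by the ChIP and the input cells alike. The labels used here give no age, no sex and no number of pooled animals, and ChIP from cells without the YFP allele was not analysed here. There was 1 library of each kind, so no value below has a replicate, and peaks of the same library are not replicates of a condition. The ChIP library held 10622111 tags after filtering and the input 20429667. Peaks are DNA and not RNA, so the purity of the sorted cells could not be checked from them.

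PAX7 is the transcription factor that marks the stem cells of skeletal muscle, and it reads DNA with a paired domain and a homeodomain. In mammalian genomes many genes lie close to a neighbour that is transcribed in the opposite direction, and the short stretch between both starts, often rich in CpG dinucleotides, then serves as a promoter for both genes. Such bidirectional promoters are known for genes of DNA repair, mitochondria, RNA processing and other tasks that every cell performs. A peak in such a place cannot be assigned to either gene by position alone.

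The DNA that separates both gene starts is shown for 9 of these pairs, on the plus strand of GRCm38, 5′ to 3′, because at these places 2 genes start within 250 bp of each other beside a single summit. Sequences were read from the RefSeq promoter table of build GRCm38.p6, which covered 42 of the 45 distinct gaps of 20 to 250 bp between 2 gene starts beside these peaks, among pairs whose strands are both known. The first 6 are the pairs of this kind with the highest fold enrichment, Npat/Atm and Palb2/Dctn5 hold genes of DNA repair, and Dad1/Abhd4 holds a match to TAATNNATT, a form of facing homeodomain sites. The peak of Npat/Atm, at chr9:53536941-53537137, lies inside Npat and does not cover the printed gap. They lie at chr2:91650052-91650117 (Zfp408/Arhgap1), chr16:37539790-37539857 (Rabl3/Gtf2e1), chr7:126695784-126695999 (Slx1b/Bola2), chr2:32288137-32288286 (Swi5/Golga2), chr5:31193140-31193261 (Eif2b4/Snx17), chr2:84826848-84827020 (Timm10/Smtnl1), chr9:53536829-53536888 (Npat/Atm), chr7:122132981-122133040 (Palb2/Dctn5) and chr14:54253930-54254128 (Dad1/Abhd4). Capitals mark matches, on either strand, to the short sequences searched for further down, and adjoining capitals can belong to 2 overlapping matches.
Zfp408/Arhgap1: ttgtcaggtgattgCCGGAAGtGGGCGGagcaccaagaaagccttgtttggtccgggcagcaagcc
Rabl3/Gtf2e1: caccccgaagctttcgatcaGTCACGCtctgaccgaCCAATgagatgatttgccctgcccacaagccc
Slx1b/Bola2: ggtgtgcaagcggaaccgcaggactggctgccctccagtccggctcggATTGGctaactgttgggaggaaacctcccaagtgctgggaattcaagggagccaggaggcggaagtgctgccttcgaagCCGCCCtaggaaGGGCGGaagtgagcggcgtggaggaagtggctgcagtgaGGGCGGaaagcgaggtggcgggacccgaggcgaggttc
Swi5/Golga2: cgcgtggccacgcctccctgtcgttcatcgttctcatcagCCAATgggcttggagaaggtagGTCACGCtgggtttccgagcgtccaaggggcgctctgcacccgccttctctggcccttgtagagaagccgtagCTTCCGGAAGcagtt
Eif2b4/Snx17: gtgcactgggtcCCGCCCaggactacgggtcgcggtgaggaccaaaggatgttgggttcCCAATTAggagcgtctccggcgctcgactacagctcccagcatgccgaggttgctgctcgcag
Timm10/Smtnl1: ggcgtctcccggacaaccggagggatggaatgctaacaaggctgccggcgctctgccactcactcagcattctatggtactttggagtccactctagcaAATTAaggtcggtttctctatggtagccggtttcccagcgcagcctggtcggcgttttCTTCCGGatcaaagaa
Npat/Atm: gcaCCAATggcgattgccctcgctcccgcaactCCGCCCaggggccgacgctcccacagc
Palb2/Dctn5: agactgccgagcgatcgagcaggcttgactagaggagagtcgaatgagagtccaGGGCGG
Dad1/Abhd4: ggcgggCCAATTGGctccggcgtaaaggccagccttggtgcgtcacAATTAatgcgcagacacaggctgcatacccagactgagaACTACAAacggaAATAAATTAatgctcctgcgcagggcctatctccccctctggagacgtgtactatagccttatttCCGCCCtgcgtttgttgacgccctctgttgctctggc

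The printed gaps were chosen, most of them for a high fold. Among all 42 distinct gaps read, the paired domain core GTCACGC stood in 2, both of them among the 9 printed. In Rabl3/Gtf2e1 it covered bases 21 to 27 and a CCAAT box covered bases 37 to 41, with the summit at base 39. In Swi5/Golga2 the core site covered bases 63 to 69, with the summit at base 11. The homeodomain core TAATT stood on the minus strand at bases 62 to 66 of Eif2b4/Snx17, with the summit at base 44, and at bases 100 to 104 of Timm10/Smtnl1, with the summit at base 145. The pair of facing homeodomain sites in Dad1/Abhd4 covered bases 98 to 106, and its summit lay at base 23. A match is a description of the letters and not a site of binding, and a gap without one says only that these letters are not in that stretch.

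The strongest of the 281 peaks lay at Zfp408/Arhgap1, Rabl3/Gtf2e1, Mterf3/Ptdss1, Lsm11/Thg1l and Slx1b/Bola2. The pileup counts the ChIP fragments that cover the summit, the background is the local input level after scaling to the ChIP depth, and the fold enrichment is (pileup + 1) over (background + 1). Pileups and folds are the authors' own deposited values, and a fold's interval in brackets is the exact 95% Poisson range of its fragment count, with the background held fixed, and accounts for counting error alone. Between Zfp408, which encodes a zinc finger protein, and Arhgap1, which encodes a GTPase-activating protein, the peak at chr2:91649789-91650354 had a pileup of 35 against a background of 0.977, an 18.2-fold enrichment (12.8 to 25.1). Its summit was 37 bp from the start of Zfp408, inside that gene, and 104 bp from the start of Arhgap1. The peak at chr16:37539667-37540158 had a pileup of 32 against a background of 0.977 (16.7-fold, 11.6 to 23.4), and its summit stood between the starts of Rabl3, a gene for a RAB-like GTPase, and Gtf2e1, which encodes a subunit of the general transcription factor TFIIE, at 30 and 39 bp. A background of 0.977 is the lowest that the caller assigns in these libraries, so at such peaks the input held no local excess of tags.

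The third peak by fold, at chr13:66932885-66933355, had a pileup of 32 against a background of 1.04 (16.2-fold, 11.2 to 22.6), inside the overlap of Mterf3, of the mitochondrial transcription termination factor family, and Ptdss1, a phosphatidylserine synthase gene. Lsm11, which encodes a component of the U7 particle that processes histone messenger RNA, and Thg1l, a gene for a tRNA-modifying guanylyltransferase, flanked a peak of 30 fragments against 0.977 (15.7-fold, 10.7 to 22.2). Slx1b, which encodes a nuclease subunit that cuts branched DNA, and Bola2, which acts in iron-sulfur cluster handling, flanked a peak with the same pileup, background and fold. Coro1a, a gene for an actin-binding coronin, had its end 3978 bp from the same summit. At Cryz, a quinone reductase gene, and Tyw3, a gene of tRNA base modification, the pileup was 28 against 0.977 (14.7-fold, 9.92 to 21.0), and the summit fell exactly on the start of Cryz. These intervals overlap one another, so the order among the strongest peaks is not resolved by the counts.

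The next ranks held Opa3/Gpr4 at 14.7-fold, Kri1/Cdkn2d at 14.2-fold and Eif3f/Nlrp10 at 13.7-fold. Kri1 is a gene of ribosome biogenesis, Cdkn2d encodes a cyclin-dependent kinase inhibitor, Eif3f a subunit of translation initiation factor 3 and Gpr4 a proton-sensing receptor. At 13.2-fold stood Pi4k2a/Morn4, H4c14/H3c13, Swi5/Golga2, Topors/Smim27, Eif2b4/Snx17 and Tssc4/Cd81, with pileups of 25 or 26. Golga2 encodes the Golgi matrix protein GM130, Eif2b4 a subunit of the exchange factor of initiation factor 2, Snx17 a sorting nexin and Cd81 a tetraspanin. The ends of Ndufb6, a gene of respiratory complex I, and of Trpm5, a cation channel gene, also lay near the Topors/Smim27 and the Tssc4/Cd81 summit, at 829 and 2240 bp. Histone genes have near-identical copies, so the H4c14/H3c13 value is uncertain in its position. Lower among the first 20 stood Creg1/Cd247, Cdc37l1/Ak3, Timm10/Smtnl1 and Tssk6/Ndufa13, each at 12.6-fold with a pileup of 24. Timm10 encodes a chaperone of mitochondrial import, Ak3 an adenylate kinase of the mitochondrial matrix, Ndufa13 a subunit of complex I and Cd247 the zeta chain of the T cell receptor. Among the 20 highest folds, 10 pairs had a start next to a start, 6 had a start next to a tail, and 4 had a gene of unknown strand.

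**Figure D1:**
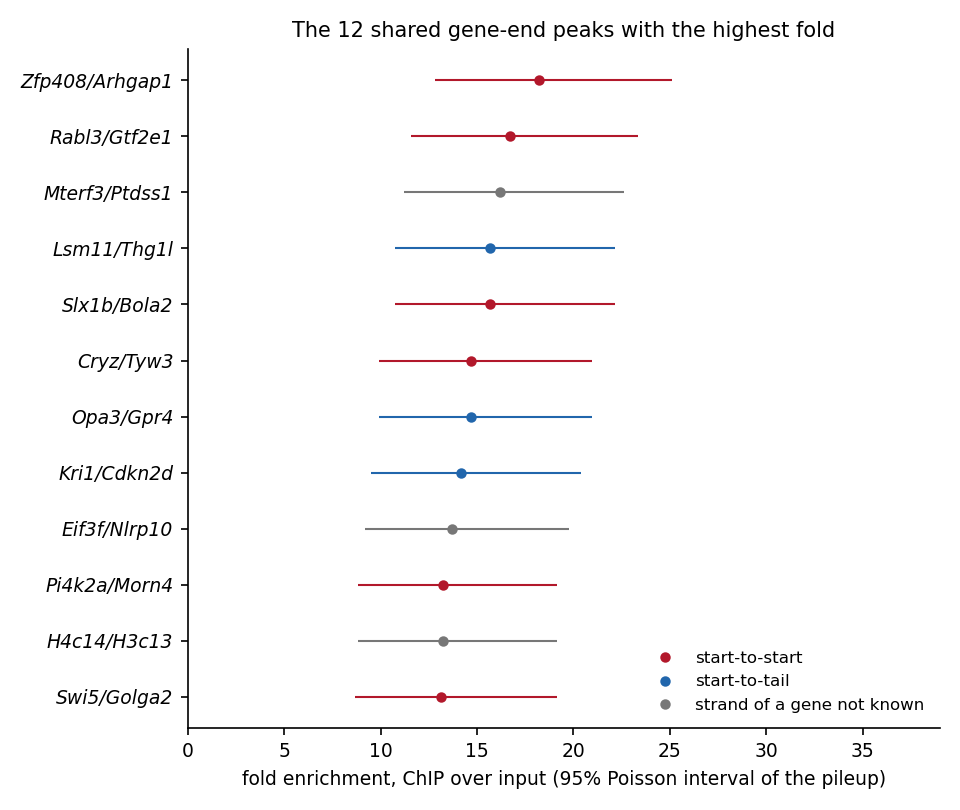
Fold enrichment of the 12 shared gene-end peaks with the highest values, ordered from the top. Points are the deposited fold of ChIP over input, bars are exact 95% Poisson intervals of the pileup, and colour gives how the 2 nearest genes are placed. The points run from 18.2 for Zfp408/Arhgap1 to 13.2 for Swi5/Golga2, and all bars overlap.

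As a class, peaks shared by neighbouring genes differed in fold from the rest of the list by less than the error of the medians. The median fold was 7.08 (exact 95% interval of the median 6.86 to 7.56) over the 281 shared peaks, 7.31 (7.08 to 7.59) over the 582 gene-end peaks with a single gene, and 7.35 (7.22 to 7.50) over the 2095 peaks away from gene ends. Folds of the shared peaks ran from 4.30 to 18.2, with quartiles at 6.25 and 8.44. Their pileups ran from 9 to 35 with a median of 14, and their widths from 172 to 744 bp with a median of 225 bp. A fold of 10 or more was reached by 36 shared peaks (12.8%, 9.40 to 17.2%), by 81 single-gene peaks (13.9%, 11.3 to 17.0%), and by 14.5% of all 2958 peaks on these chromosomes. The share of shared peaks at this level is therefore near the background of the list.

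**Figure D2:**
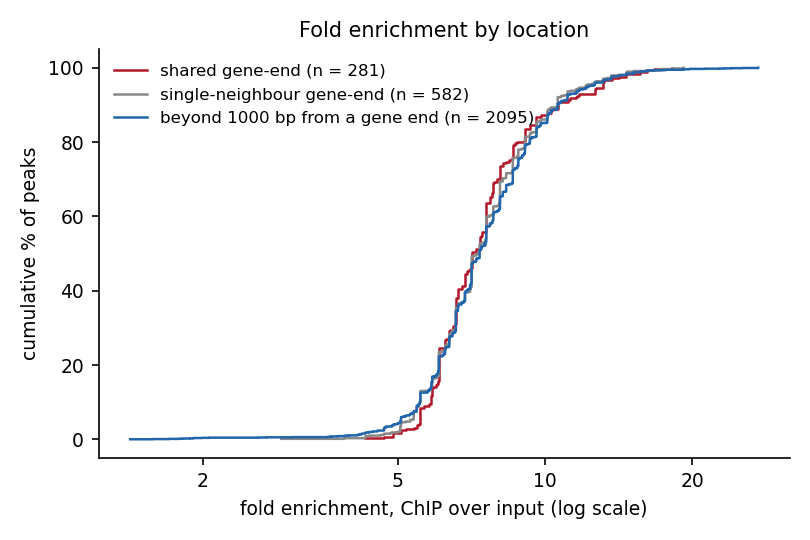
Cumulative share of peaks (vertical axis, per cent) up to a given fold enrichment of ChIP over input (horizontal axis, log scale) for shared gene-end peaks, gene-end peaks with a single gene, and peaks farther than 1000 bp from a gene end. The 3 curves run close together, with medians of 7.08, 7.31 and 7.35.

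The input was low at these peaks. The scaled background stood at its floor of 0.977 at 146 shared peaks (52.0%, 46.1 to 57.7%), at 318 single-gene peaks (54.6%, 50.6 to 58.6%) and at 839 peaks away from gene ends (40.0%, 38.0 to 42.2%). The intervals of both gene-end classes overlap each other and lie above that of the other peaks. None of the 281 shared peaks had a background of 10 or more (up to 1.35%, Wilson). This was so at 1 single-gene peak (0.172%), at 22 of the others (1.05%) and at 0.778% of all 2958 peaks. The interval of the shared peaks includes all of these shares, so their lack of such backgrounds is not resolved from the list. The highest backgrounds were 2.60 at Alkbh1/Slirp, with a pileup of 19 (5.56-fold, 3.46 to 8.52), and 2.08 at Rogdi/Glyr1, Anxa5/1810062G17Rik, Isy1/Cnbp and Chek2/Hscb. Slirp encodes an RNA-binding protein of mitochondria, Anxa5 a phospholipid-binding annexin and Cnbp a zinc finger protein that binds nucleic acids. Of these, Rogdi/Glyr1 had the highest pileup, 23 fragments, and a fold of 7.79 (5.06 to 11.5).

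Summits of shared peaks sat closer to a gene end than those of single-gene peaks. The median distance to the nearest end was 97 bp (78 to 120) for shared peaks and 156 bp (143 to 179) for single-gene peaks. Within 100 bp lay 142 of 281 shared summits (50.5%, 44.7 to 56.3%) and 202 of 582 single-gene summits (34.7%, 31.0 to 38.7%). Within 250 bp the shares were 74.7% (69.3 to 79.5%) and 65.1% (61.2 to 68.9%). By the rule, a shared summit has the ends of at least 2 genes to be near, so this comparison is a description. The second gene's end lay at a median of 768 bp from the summit, with quartiles at 217 and 2520 bp, and within 1000 bp at 157 peaks (55.9%, 50.0 to 61.6%). As a description across these 281 peaks of the same libraries, the Spearman coefficient of fold was 0.02 with the distance to the nearest end and 0.06 with that to the second gene.

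**Figure D3:**
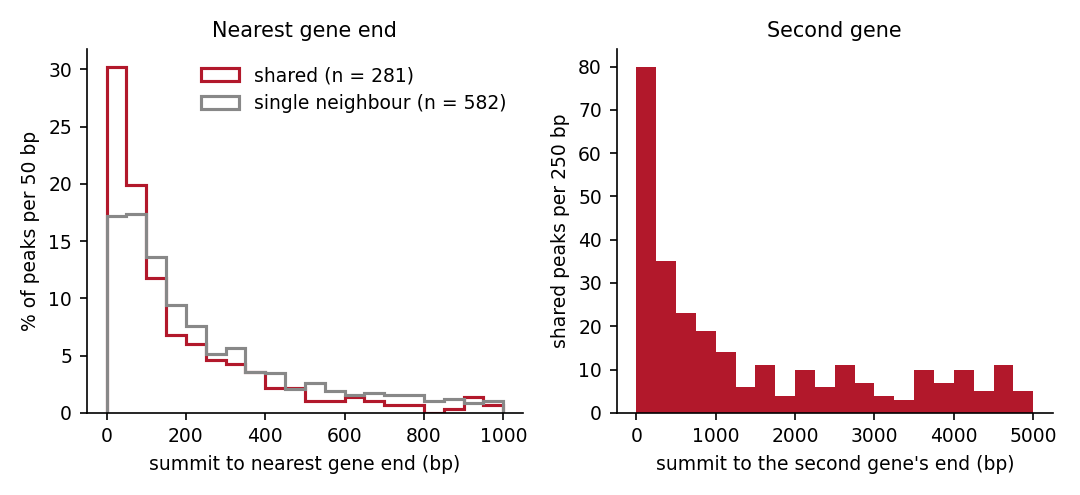
Left, distance in bp from the summit to the nearest gene end, as per cent of peaks in bins of 50 bp, for shared gene-end peaks and gene-end peaks with a single gene. Right, number of shared peaks by distance in bp from the summit to the end of the second gene, in bins of 250 bp. Shared summits have a median of 97 bp to the nearest end against 156 bp for single-gene summits, and the distance to the second gene has a median of 768 bp.

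The peaks stood at gene starts and almost never at tails. Strand was taken from the promoter table, which gave it for 500 of the 590 genes with an end within 5000 bp of a member summit, and a start here is the 5′ border of the annotated gene. The nearest end was a start at 228 of 237 shared peaks with a known strand (96.2%, 92.9 to 98.0%), and at 474 of 487 single-gene peaks (97.3%, 95.5 to 98.4%). Over all bases of the genome that meet the same 2 distance conditions, sampled at every 25th base, the nearest end was a start at 44.0%. This near absence of tails was therefore common to both kinds of gene-end peak.

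At the 215 shared peaks whose 2 nearest genes both had a known strand, 124 had a start next to a start (57.7%, 51.0 to 64.1%), 91 had a start next to a tail (42.3%, 35.9 to 49.0%) and none had 2 tails (up to 1.76%, Wilson). All bases that meet the same conditions divided into 22.3%, 44.6% and 33.0%. Of the 124 start-to-start pairs, 121 were transcribed from opposite strands, and the other 3, Cdk2ap2/Pitpnm1, Commd3/Bmi1 and Htd2/Rpp14, ran along the same strand. In the start-to-tail pairs the start was the nearer end at 84 of 91 peaks (92.3%, 85.0 to 96.2%).

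**Figure D4:**
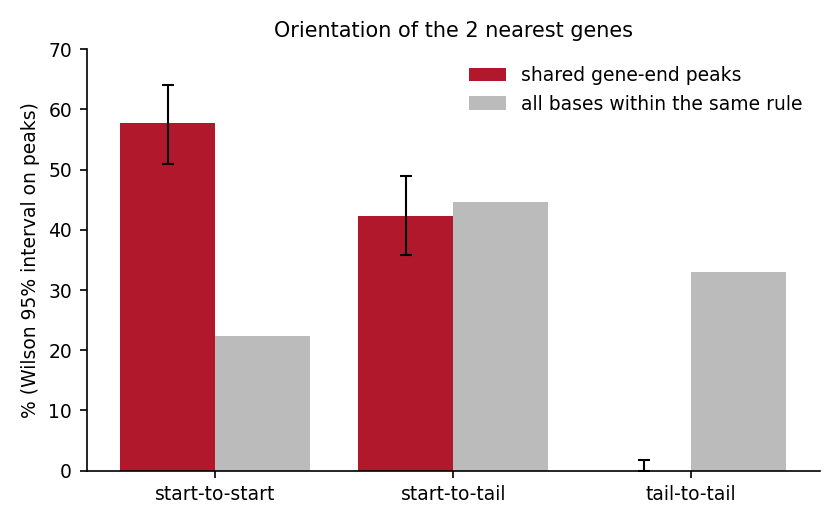
Placement of the 2 nearest genes at shared gene-end peaks with known strands (n = 215; bars with Wilson 95% intervals) beside all sampled bases that meet the same distance conditions, in per cent. Start-to-start pairs make up 57.7% of peaks and 22.3% of bases, start-to-tail pairs 42.3% and 44.6%, and tail-to-tail pairs 0% and 33.0%.

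Since peaks lay at starts anyway, the same shares were taken only over places near a start. Of 497 peaks within 250 bp of a gene start as their nearest end, 172 were shared (34.6%, 30.6 to 38.9%), against 27.2% of all bases at that distance from a start. Among those with a known second strand, the second end was also a start at 101 of 156 (64.7%, 57.0 to 71.8%), against 51.3% of bases. The second end lay within 1000 bp at 64.0% of the 172 peaks (56.5 to 70.8%), against 44.1% of bases. With the limit at 1000 bp from a start, 32.5% of 702 peaks were shared (29.1 to 36.0%) against 24.9% of bases, and 59.6% of the 208 with known strands were start-to-start (52.8 to 66.1%) against 50.0% of bases. Peaks near starts thus had a close neighbour, and a neighbour that also starts there, more often than bases near starts, by more than counting error. Bases were not weighted for mappability, open chromatin or expression.

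The 2 nearest genes were separated by a gap at 221 shared peaks (78.6%, 73.5 to 83.0%), overlapped at 58 (20.6%, 16.3 to 25.8%) and lay one within the other at 2. Bases under the same conditions divided into 78.9%, 18.8% and 2.23%, close to the peaks. The summit itself stood in the gap between both genes at 104 peaks (37.0%, 31.6 to 42.8%) against 31.6% of bases, inside a single gene of the pair at 151 (53.7%, 47.9 to 59.5%) and inside both at 16 (5.69%, 3.53 to 9.05%). Overlapping pairs with the highest folds were Mterf3/Ptdss1, Cryz/Tyw3, Topors/Smim27 and, tied at 12.6-fold, Cdc37l1/Ak3 and Tssk6/Ndufa13. The nested cases were Thrb, the thyroid hormone receptor beta gene, with the predicted gene LOC115488350 inside it (11.1-fold, 7.08 to 16.7), and Htd2/Rpp14, which share both borders in the gene table (6.58-fold, 3.64 to 11.1).

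Gaps at shared peaks differed in length by the placement of the genes. Gap lengths of all gene pairs that meet the rule were not taken, so this describes the peaks without a background. The gap had a median of 173 bp in the 91 start-to-start pairs that had one, with quartiles at 68.5 and 878 bp, and of 1940 bp in 79 start-to-tail pairs, with quartiles at 749 and 3410 bp. It was at most 250 bp in 50 of the 91 (54.9%, 44.7 to 64.8%), and at 21 of these 50 the peak region covered both starts. Of the 70 start-to-start pairs with a gap of up to 1000 bp, the summit stood within the gap at 22 (31.4%, 21.8 to 43.0%). Start-to-tail pairs had a median fold of 7.59 (7.08 to 7.84) and start-to-start pairs of 6.81 (6.58 to 7.35), and these intervals overlap. A fold of 10 or more was reached by 10 start-to-tail pairs (11.0%, 6.08 to 19.1%) and 18 start-to-start pairs (14.5%, 9.38 to 21.8%).

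The closest pairs left almost no DNA between the genes. Htd2/Rpp14 share a border, and Ubfd1/Ears2, Pnpla6/Mcoln1, Slc25a40/Dbf4 and Chek2/Hscb have ends 1, 3, 5 and 7 bp apart. At Ubfd1/Ears2, where Ears2 encodes the glutamyl-tRNA synthetase of mitochondria, the pileup was 15 (8.09-fold, 4.75 to 13.0). At Slc25a40/Dbf4, where Slc25a40 encodes a mitochondrial carrier and Dbf4 the activator of the replication kinase CDC7, it was 18 (9.61-fold, 5.90 to 14.9). At Chek2/Hscb, which encode a DNA damage checkpoint kinase and a co-chaperone of iron-sulfur cluster assembly, it was 15 against a background of 2.08 (5.20-fold, 3.05 to 8.36).

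Most shared peaks joined 2 genes, 241 of 281 (85.8%, 81.2 to 89.4%), while 36 had 3 genes within 5000 bp and 4 had 4. The median fold was 7.08 (6.86 to 7.59) with 2 genes and 7.22 (6.47 to 7.72) with 3 or 4. The 4-gene peaks were Gmppb/Ip6k1/Rnf123/Amigo3 at 9.61-fold, Ndufaf3/Dalrd3/Impdh2/Wdr6 at 9.31-fold, Tmem179b/Taf6l/Tmem223/Nxf1 at 7.08-fold and Stub1/Jmjd8/Rhbdl1/Wdr24 at 6.07-fold. Gmppb acts in the making of sugar donors for glycoprotein synthesis, Impdh2 in guanine nucleotide synthesis, Nxf1 in export of messenger RNA and Stub1 in ubiquitin tagging of misfolded proteins. Members were found on all 19 chromosomes, from 3 on chromosome 13 (9.38% of its 32 gene-end peaks) to 30 on chromosome 7 (48.4% of 62), with 29 on chromosome 11 (46.0% of 63).

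In all, 431 genes had an end within 1000 bp of a member summit. This is 4.14% of the 10421 protein-coding genes that could have one, because the end of another gene lies within 6000 bp of theirs, and it is the background for the gene groups that follow. A gene was within reach by either its start or its tail, while the nearest end was a start at 96.2% of shared peaks with a known strand. Genes within reach at their start were not counted apart, so the groups are not matched to this background for gene arrangement. Of the 431 genes, 10 had 2 member peaks. Bcs1l, a chaperone gene of respiratory complex III, and Zfp142, a zinc finger gene, share a 155 bp gap with a peak of 10.3-fold (6.48 to 15.6) whose summit lies in it, and a second peak of 7.72-fold (4.53 to 12.4) lies 385 bp inside Zfp142. Cdkn2d had 1 peak at each end, at 14.2-fold with Kri1 and at 8.60-fold with Ap1m2. Camta2 likewise had a peak at each end, both with a pileup of 13 and 7.08-fold. The pairs Sdccag8/Cep170, Gm46977/Etv6 and Mob3a/Izumo4 also held 2 peaks each, with folds from 5.56 to 7.59.

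Groups of genes for making proteins and RNA carried shared peaks at shares above the background. Of 131 genes of the cytosolic ribosome, initiation factors and RNA polymerases within reach, 12 had one (9.16%, 5.32 to 15.3%), with a median of their highest folds of 8.84 against 7.08 over all shared peaks. They were led by Eif3f, Eif2b4, Rpl13a, a protein of the large ribosomal subunit, at 9.80-fold (6.10 to 15.0), and Polr2a, the largest subunit of RNA polymerase II, at 9.10-fold (5.51 to 14.3). Of 166 genes of RNA processing and tRNA charging, 14 had one (8.43%, 5.09 to 13.7%, median fold 7.46), led by Lsm11, the helicase gene Ddx41 at 8.59-fold (5.47 to 12.9), and the helicase genes Dhx16 and Dhx38 at 8.09-fold each. Of 161 genes of mitochondrial ribosomes, respiratory chain and import, 12 had one (7.45%, 4.31 to 12.6%, median fold 8.19). The strongest were Ndufb6, Ndufa13, Timm10 and Tomm20, a receptor of the mitochondrial outer membrane, at 9.61-fold (5.90 to 14.9). The lower ends of the intervals of these 3 groups lie above 4.14%. Gene-end peaks with a single gene were found at 12 of all 176 genes of the first list (6.82%, 3.94 to 11.5%), 14 of 230 of the second (6.09%, 3.66 to 9.96%) and 5 of 204 of the third (2.45%, 1.05 to 5.61%), against 2.77% of all 20558 genes. The first 2 lists thus stood above the share of all genes in single-gene peaks as well, and the mitochondrial list did not. Single-gene shares, here and below, are taken over all genes of a list, whether another gene's end is within reach or not. It was within reach for 131 of 176, 166 of 230 and 161 of 204 genes of these lists, against 50.7% of all genes. Since single-gene peaks need a place without a second gene, these shares are not matched for gene arrangement. The groups were chosen with earlier results known, so no test was made.

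Of 77 listed genes of DNA repair and replication within reach, 7 had a shared peak (9.09%, 4.47 to 17.6%, median fold 7.59). The lower end of this interval also lies above 4.14%. Gene-end peaks with a single gene were found at 0 of all 93 genes of this list (up to 3.97%, Wilson), a range that includes the 2.77% of all genes. Another gene's end was within reach for 77 of these 93 genes, against 50.7% of all genes. Slx1b and Dbf4, whose peaks are given above, are not on the list, so its count does not cover every gene of this kind. Atm, the kinase gene of the response to double-strand breaks, shares a 60 bp gap with Npat, which promotes histone gene transcription, and the peak there had a pileup of 17 (9.10-fold, 5.51 to 14.3) with its summit 154 bp inside Npat. At Mdc1/Tubb5, where Mdc1 encodes a mediator at sites of DNA damage, the fold was 7.84 (4.61 to 12.6). Palb2/Dctn5, Nbr1/Brca1 and Xrcc5/Tmem169 had the same pileup of 14 and the same fold of 7.59 (4.38 to 12.4). Palb2 and Brca1 act in homologous recombination and Xrcc5 encodes the Ku80 subunit of end joining. The summit was 24 bp from Palb2 and 128 bp from Xrcc5, but 648 bp from Brca1, inside Nbr1. Fancm, a DNA translocase gene of the Fanconi pathway, had a peak of 6.64-fold (3.96 to 10.5) in its 171 bp gap to Fkbp3, and Chek2 is given above.

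For the other groups the interval of the share included the background of 4.14%, and the shares themselves ran from 1.41% to 7.41%. Zinc finger transcription factors had shared peaks at 9 of 209 genes (4.31%, 2.28 to 7.98%), led by Zfp408, Zfp473 at 11.1-fold, Zfp142 and Zbtb22 at 8.60-fold. Ubiquitin and proteasome genes had 7 of 214 (3.27%, 1.59 to 6.60%), led by Fbxo6 at 8.09-fold and Cul4a, a cullin scaffold gene, at 7.84-fold. Vesicle traffic genes had 6 of 156 (3.85%, 1.77 to 8.14%), led by Snx17, Rab4b at 11.7-fold, Sec16a at 8.09-fold and Snx1 at 7.35-fold. Heat shock and chaperone genes had 5 of 68 (7.35%, 3.18 to 16.1%), among them Tcp1, Cct6a and Cct7, all subunits of the chaperonin that folds actin and tubulin, and Hsp90b1, with folds from 6.05 to 7.35. Listed chromatin regulators had 4 of 69 (5.80%, 2.28 to 14.0%), namely Kdm5a, Hdac3, Kdm1a and Smarcd2, at 6.37 to 7.35-fold. Genes of the same families that are not on the list also had shared peaks, among them Hdac10 at 6.94-fold and Smarce1 at 7.59-fold. Genes of cilia, centrosomes, kinesins and WD repeats had 8 of 108 (7.41%, 3.80 to 13.9%), led by Wdr12 at 7.84-fold, Wdr46 at 7.35-fold, Kif22 at 7.08-fold and Nphp4 at 6.86-fold. Histone genes, which lie in dense clusters, had 1 of 71 (1.41%, 0.249 to 7.56%), at H4c14. The widest of these intervals do not separate a share near the background from one well above it. Gene-end peaks with a single gene were found at 22 of all 346 ubiquitin and proteasome genes (6.36%, 4.24 to 9.44%), 10 of 99 chromatin regulators (10.1%, 5.58 to 17.6%) and 8 of 96 heat shock and chaperone genes (8.33%, 4.28 to 15.6%), all with intervals above 2.77%.

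The lists of muscle genes had few genes within reach, so their shares are not resolved from the background of 4.14%. None of the 5 muscle stem cell genes within reach had a shared peak. A shared peak was likewise found at none of 14 immediate early genes (up to 21.5%, Wilson) and none of 11 markers of endothelial, immune, fibroblast-like and other cells of a muscle sort (up to 25.9%). Gene-end peaks with a single gene were found at 3 of all 40 muscle stem cell genes (7.5%, 2.58 to 19.9%). They were found at 7 of 41 immediate early genes (17.1%, 8.53 to 31.3%) and 1 of 28 such markers (3.57%, 0.633 to 17.7%), against 2.77% of all genes. Of these intervals only that of the immediate early genes lies above 2.77%. Another gene's end was within reach for 14 of these 41 genes, against 50.7% of all genes, so this share is not matched for gene arrangement. Of 22 genes of myogenic differentiation 2 had a shared peak (9.09%, 2.53 to 27.8%), an interval that includes the background of 4.14%. Mylpf, a fast myosin light chain gene, had a peak of 6.47-fold (3.66 to 10.7) shared with Tbc1d10b, and Myh1, a fast myosin heavy chain gene, a peak of 6.07-fold (3.28 to 10.5) between it and its paralog Myh2. Myosin heavy chain genes are similar in sequence, which leaves this position uncertain.

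Long noncoding RNA genes ended near shared peaks less often than near single-gene peaks. An end of such a gene lay within 1000 bp of 19 shared summits (6.76%, 4.37 to 10.3%), 112 single-gene summits (19.2%, 16.2 to 22.6%) and 121 of the summits away from coding gene ends (5.78%, 4.86 to 6.86%). The interval of the shared peaks lies below that of the single-gene peaks and overlaps that of the others. By the rule, shared peaks have a second coding gene nearby and single-gene peaks have none, so the room for a noncoding gene can differ. The same share over all bases of each class was not taken, so this comparison is a description. A microRNA gene lay within 1000 bp at 3 shared peaks (1.07%, 0.364 to 3.09%), 4 single-gene peaks (0.687%, 0.268 to 1.75%) and 5 of the others (0.239%, 0.102 to 0.557%). The interval of the shared peaks overlaps both of the others. The 3 at shared peaks were Mir1934 at Mpdu1/Cd68, 577 bp from a summit of 9.10-fold, Mir191 at Ndufaf3/Dalrd3, 893 bp from a summit of 9.31-fold, and Mir7009 at Anxa5, 322 bp from a summit of 5.84-fold.

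Short sequences were counted in the promoter windows of 300 bases, from 250 before to 50 after a gene start, that hold a member summit. Such a window was found for 165 shared peaks and 285 single-gene peaks, against 16457 windows of all genes with one. The windows with summits were rich in CpG, with an observed-to-expected ratio of 0.6 or more in 90.9% of the shared, 90.5% of the single-gene and 49.8% of all windows, and their median GC content was 60.3%, 63.7% and 56.7%. Shares are therefore also given for the 150 shared and the 8198 of all windows with at least that ratio. These still differed in median GC content, at 61.3% (59.7 to 63.0%) and 64.0% (64.0 to 64.3%), so their base composition is not matched. Each sequence was searched on both strands.

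The paired domain core GTCACGC stood in 22 shared windows (13.3%, 8.97 to 19.4%), 47 single-gene windows (16.5%, 12.6 to 21.2%) and 2.96% of all windows. Among CpG-rich windows it stood in 13.3% of the shared (8.80 to 19.7%) and 4.96% of all. The intervals of both kinds of gene-end peak overlapped and lay above the share of all windows. The middle of the match nearest to the summit was at a median of 35.5 bp from it (17.0 to 78.0), and 12 of the 22 lay within 50 bp. The median fold was 7.84 (6.47 to 11.1) in the 22 windows with a match and 7.35 (6.86 to 7.59) in the 143 without, and these intervals overlap. A fold of 10 or more was reached in 8 of the 22 windows with a match (36.4%, 19.7 to 57.0%) and in 15 of the 143 without (10.5%, 6.46 to 16.6%), against 12.8% of all shared peaks and 14.5% of all peaks. This split was added after the values were seen and is a description. The 8 were Rabl3/Gtf2e1, Lsm11/Thg1l, Cryz/Tyw3, Swi5/Golga2, Cdc37l1/Ak3, Thrb, Ist1/Zfp821 and Aasdhppt/Kbtbd3. At Cryz the match was 5 bp from the summit, at Thrb, whose window belongs to a start inside the annotated gene, 6 bp and at Rabl3/Gtf2e1 15 bp.

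The homeodomain core TAATT stood in 45 shared windows (27.3%, 21.1 to 34.5%), 19.6% of single-gene windows (15.5 to 24.7%) and 23.9% of all windows, and among CpG-rich windows in 24.7% of the shared (18.5 to 32.1%) and 13.4% of all. Matches to the facing form TAATNNATT, which leaves out the last base of the second site, were found in 5 shared windows (3.03%, 1.30 to 6.90%), 1.40% of single-gene windows and 2.33% of all. The facing form can hold the core, and the core can overlap the CCAAT box in CCAATTA, as in Eif2b4/Snx17 above.

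For 2 of the 16 sequences searched, both read by promoter factors of many cell types, the intervals of shared and single-gene windows did not overlap. The ETS sequence CCGGAAG stood in 44 shared windows (26.7%, 20.5 to 33.9%) and in 13.7% of single-gene windows (10.2 to 18.2%), against 12.3% of all windows. ACTACAA, a core of THAP11 and ZFP143 sites, stood in 17 shared windows (10.3%, 6.53 to 15.9%) and in 3.16% of single-gene windows (1.67 to 5.89%), against 3.96% of all. Among CpG-rich windows the ETS sequence was in 29.3% of the shared and 20.1% of all, and ACTACAA in 15 of the 150 and in 4.21% of all. CCAAT stood in 55.8% of shared windows (48.1 to 63.1%), 46.0% of single-gene windows (40.3 to 51.8%) and 39.1% of all, and the GC box GGGCGG in 67.3% (59.8 to 74.0%), 78.6% (73.5 to 83.0%) and 47.3%. Of the remaining sequences, TATAAA stood in 5.45% of shared, 3.16% of single-gene and 13.5% of all windows, and the AP-1 sequence TGANTCA in 3.03%, 5.26% and 7.12%. Among CpG-rich windows CCAAT was in 56.0% of the shared (48.0 to 63.7%) and 37.7% of all. The GC box, higher in shared than in all windows, was lower there, at 69.3% of the shared (61.5 to 76.2%) and 74.4% of all, and that interval includes the share of all. TATAAA was in 4.67% (2.28 to 9.32%) and 5.82%, and the AP-1 sequence in 2.67% (1.04 to 6.66%) and 3.44%. The lower shares of these sequences among shared windows are thus not resolved when only CpG-rich windows are taken. Because the windows were picked for holding a summit and the sequences were chosen with earlier results known, these shares were not tested.

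**Figure D5:**
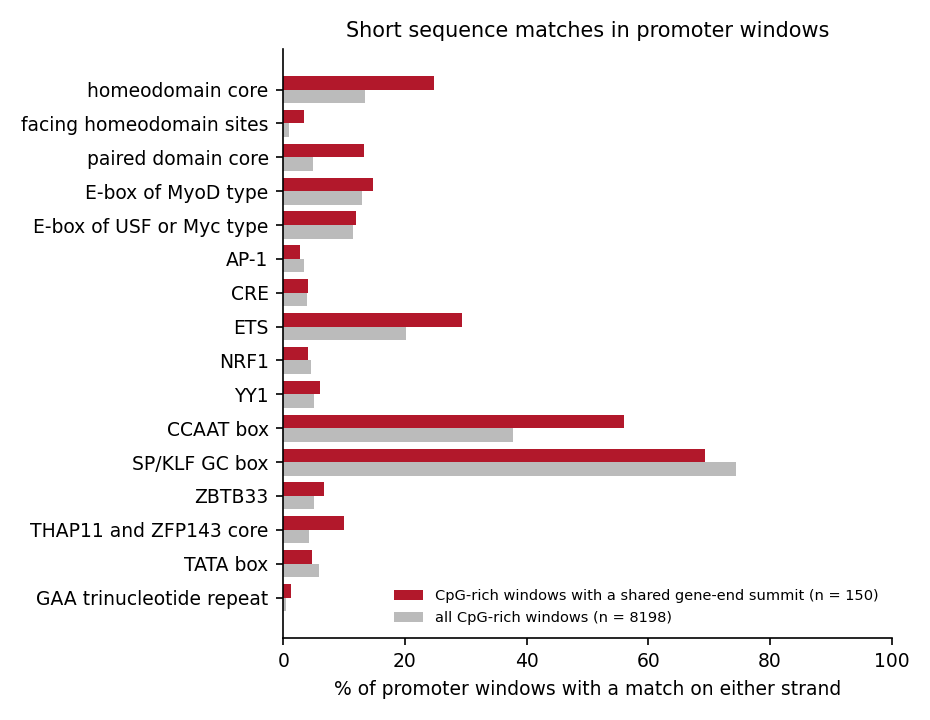
Per cent of CpG-rich 300-base promoter windows with a match to each named short sequence on either strand, for windows that hold a shared gene-end summit (n = 150) and for all such windows (n = 8198). The paired domain core stands in 13.3% and 4.96%, the homeodomain core in 24.7% and 13.4%, the CCAAT box in 56.0% and 37.7%, and the GC box in 69.3% and 74.4%. Median GC content of these windows is 61.3% and 64.0%, so base composition is not matched.

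The limits of the rule cut through a continuum. Just inside 1000 bp from the nearest end lay Cdh16/Pdp2 (947 bp, 10.1-fold), Tagln2/Igsf9 (954 bp, 5.86-fold) and Garnl3/Ralgps1 (959 bp, 5.86-fold), and just outside it Colgalt1/Niban3 (1016 bp, 8.07-fold), Ssbp4/Isyna1 (1033 bp, 10.1-fold) and Dnal1/Pnma1 (1043 bp, 7.72-fold). Just inside 5000 bp from the second gene lay H4c14/H3c13 (4918 bp, 13.2-fold), Ppib/Snx22 (4941 bp, 6.07-fold) and Rbis/E2f5 (4977 bp, 7.24-fold), and outside it Pkn3/Set (5004 bp, 7.35-fold) and Pan2/Il23a (5043 bp, 7.08-fold).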

How the data were processed

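One ChIP library and 1 input library of sorted muscle stem cells were deposited as a single peak list. GRCm38, bcl2fastq 2.16, HISAT2 and MACS2 2.1.1 are named per the submitters' processing notes, with no role or order. The file headers give MACS 2.1.1.20160309, a q-value limit of 0.01, fragments of 172 bp and an input scaled by 0.5199 to the ChIP depth. As deposited, each peak has a pileup (coverage signal), a fold (ratio) and a −log10 q-value by the authors. Tags were single-end reads of 50 bp, per the labels' protocols.

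Gene borders came from a RefSeq gene table of GRCm38.p6 (20558 protein-coding genes on chromosomes 1 to 19; 107 placed on other sequences were left out) and strand from its promoter table (16457 genes). Backgrounds were recovered from the deposited fold and pileup. Python 3.11.15, pandas 2.3.3, NumPy 2.4.6 and SciPy 1.17.1 were used, and the classification was tested on simulated data. Shares carry Wilson, medians exact binomial and folds exact Poisson 95% intervals, all for counting error only. No test was made, because 1 library a group gives no spread.

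The members, gene lists and sequences searched were chosen with earlier results of these data known. The gene lists do not hold every gene of a group. The sampling of all bases, the shares near starts, the CpG-rich windows, the match positions, the noncoding counts and the shares of listed genes with single-gene peaks were added after the data were seen. The histone list was corrected for current symbols after the data were seen. The text names the 20 highest folds, the 4 highest of each placement, up to 4 per list, the pairs with most genes, closest ends or highest background, and those at the limits of the rule; some pairs that this rule names are not reported here. The genes with 2 peaks, the 7 genes of the repair list at shared peaks, the microRNA genes and pairs with a core site were named after their values were seen. Alternatives were other windows, peak borders, stricter peaks, left-out peaks, merged summits and curated transcripts.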

Additional observations from a re-analysis of the deposited data

How the results depend on the processing

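Of 70 values recomputed under 10 alternatives, 62 stayed within their intervals (for the count of shared peaks, within 1.5 times). The share of gene-end peaks that were shared was 22.2% with the second gene within 2000 bp and 45.3% within 10000 bp, against 32.6% at 5000 bp, which follows from the width of the window. A stricter list, cut at the median −log10 q of all peaks, left 129 shared peaks by construction, with a median fold of 8.60 and 27.9% at a fold of 10 or more. In these stronger peaks 60.5% had the background at its floor, 44.2% had a summit between both genes and 98.2% had a start as the nearest end. Values under gene-end windows of 500 and 2500 bp, any part of the peak in place of the summit, peaks left out for pileup or background, merged summits and, chosen after seeing the data, curated transcripts only, stayed within the intervals. No paired analysis was possible because there was 1 library of each kind. Pileups of 9 to 35 fragments limit how well single folds can be ordered, and genes without a known strand were left out of the shares by strand.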
